A study of Homo sapiens with 4 samples.

Results

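DUSP1, DUSP4, DUSP5, DUSP6, SPRY2, SPRY4, EGR1, IER3, PHLDA1 and ETV5, here called the MAPK feedback and immediate early genes, were chosen by name for their known role, with earlier results of these data already seen, and all 10 were found among the 18398 RefSeq transcripts of the expression files. The transcripts were measured by RNA-seq in Huh1 and Huh7, established cell lines of human hepatocellular carcinoma (HCC), to see how gene expression changed when CDCA8, a subunit of the chromosomal passenger complex of dividing cells, was silenced. Each line was transfected either with a negative control siRNA (NCsiRNA) or with an siRNA against CDCA8 (CDCA8siRNA, the variant CDCA8-1siRNA in the study's methods). The study's methods give a dose of 15 nM, cationic lipid as the carrier and a treatment of 48 h, while the labels give the target of the siRNA alone. No transgene or further agent is named in the labels, and the NCsiRNA cells went through the same transfection. There were 4 libraries, 1 for each line and siRNA, and 1 siRNA against CDCA8, so neither the spread between repeated transfections nor effects outside the target could be measured.

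The MAPK (ERK) cascade carries growth factor signals from receptors through RAS, RAF, MEK and ERK to the nucleus. ERK phosphorylates transcription factors that bind beside serum response factor or at ETS sites, and these switch on immediate early genes such as EGR1 and IER3 within minutes. A further set of targets acts back on the cascade: dual-specificity phosphatases (DUSP) remove the activating phosphates from MAP kinases, and Sprouty proteins (SPRY) hold the signal between the receptor and RAF. Transcripts of DUSP6, SPRY2, SPRY4, ETV5 and PHLDA1 are therefore widely read as output of the cascade, and HCC is among the tumours in which the cascade is often active.

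Promoter windows running from 250 bases before to 50 bases after the RefSeq start site (build GRCh38.p14) were matched for 6 of the 10 members. The windows of DUSP1, EGR1 and PHLDA1 are shown because they hold different kinds of sequence element. They were picked with the responses of these members known, and a link between element and response was not tested. In DUSP1 (chr5:172771146-172771445, minus strand) the capitals mark a cAMP response element (CRE) whose first base lies 125 bases before the start and a TATA box 30 bases before it. In EGR1 (chr5:138465229-138465528, plus strand) they mark a pair of CArG boxes, the sequence bound by serum response factor, 105 and 83 bases before the start. In PHLDA1 (chr12:76031727-76032026, minus strand) they mark an ETS site read on the opposite strand, 89 bases before the start. All are printed 5′ to 3′ in the direction of the gene.
DUSP1: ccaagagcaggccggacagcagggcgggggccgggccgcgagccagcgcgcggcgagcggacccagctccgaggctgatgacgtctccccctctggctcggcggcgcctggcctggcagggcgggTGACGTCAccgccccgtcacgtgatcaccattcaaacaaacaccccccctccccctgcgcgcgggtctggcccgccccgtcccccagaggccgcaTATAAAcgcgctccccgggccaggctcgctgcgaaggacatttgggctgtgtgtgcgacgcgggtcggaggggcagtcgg
EGR1: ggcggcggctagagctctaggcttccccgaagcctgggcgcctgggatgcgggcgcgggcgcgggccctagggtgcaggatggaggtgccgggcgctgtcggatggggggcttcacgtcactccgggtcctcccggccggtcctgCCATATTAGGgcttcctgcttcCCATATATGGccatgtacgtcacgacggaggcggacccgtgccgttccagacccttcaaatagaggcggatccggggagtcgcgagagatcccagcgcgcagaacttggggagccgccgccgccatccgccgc
PHLDA1: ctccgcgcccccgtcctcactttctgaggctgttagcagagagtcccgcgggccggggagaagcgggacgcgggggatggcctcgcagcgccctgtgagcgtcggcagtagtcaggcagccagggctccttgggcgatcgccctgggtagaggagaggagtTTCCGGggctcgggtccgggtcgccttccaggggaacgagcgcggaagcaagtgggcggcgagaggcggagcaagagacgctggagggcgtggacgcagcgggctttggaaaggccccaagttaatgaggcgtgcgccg

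The motifs searched were the CArG box, by name, the CRE (TGACGTCA), the AP-1 site (TGANTCA), the ETS site (CCGGAA) and the TATA box (TATAAA or TATATA), the last on the gene's own strand and the others on both strands. No marked motif overlapped another. Among 35116 RefSeq windows of the same length, 1.29% held a CArG box, 1.85% a CRE, 7.71% an AP-1 site, 10.2% a TATA box and 17.2% an ETS site. The windows of DUSP6 and SPRY4 held none of these letters, and of 3 windows for SPRY2 1 held an ETS site 142 bases before its start. A match is a description of the sequence and not a measured binding site.

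The values were taken as RPKM, the number of reads per kilobase after scaling for library depth. A depth of 12197606 to 13384836 reads was inferred for each library from the values and transcript lengths. A change is the difference of log2(RPKM + 1) between siRNAs within a line. It is given for genes that reach 1 RPKM in either library of the pair, and it is called at 2-fold. It understates the change of low genes, so the plain RPKM ratio stands beside it, with an exact binomial 95% interval that covers counting error only. CDCA8 itself was at 24.3% of its NCsiRNA level in Huh1 and at 14.3% in Huh7. Hepatocyte markers were present, with ALB at 721 to 3447 RPKM, and their summed level with CDCA8siRNA was 4183 RPKM in Huh1, against 5407 with NCsiRNA, and 2366 RPKM in Huh7, against 3354, with 7 of 10 lower and 0 higher in the fit over both lines, against 4.21% of all genes lower and 6.03% higher. Summed fibroblast markers came to 12.1 and 25.9 RPKM in Huh1, nearly all of it LUM, and to 284 and 377 RPKM in Huh7, where COL1A1 and LUM led, with NCsiRNA first. Summed leukocyte markers came to 1.33 and 2.71 RPKM and to 11.4 and 24.2 RPKM, most of it LYZ, while PTPRC and CD3E, which define leukocytes and T cells, stayed at or under 0.417 RPKM in every library. DCN, a defining fibroblast gene, was listed at 0 in both Huh1 libraries and reached 0.406 RPKM in Huh7. The part of these markers in the results on the MAPK genes was not tested.

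With CDCA8 silenced, most of the MAPK feedback and immediate early genes stood higher than with NCsiRNA. DUSP5 was the member with the highest ratio in Huh7 and was about 2-fold higher in both lines, IER3 was 1.77-fold and 1.63-fold higher, and DUSP4 and PHLDA1 were higher in both lines, from 1.32-fold to 2.48-fold. These 4 rose in the fit over both lines. DUSP1, SPRY2 and ETV5 had ratios on opposite sides of 1 in the 2 lines, DUSP6 was higher mainly in Huh1, and EGR1 was low, near the filter of 1 RPKM. In bulk RNA, a smaller number of cells of 1 kind and less RNA in each cell cannot be told apart.

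**Figure D1:**
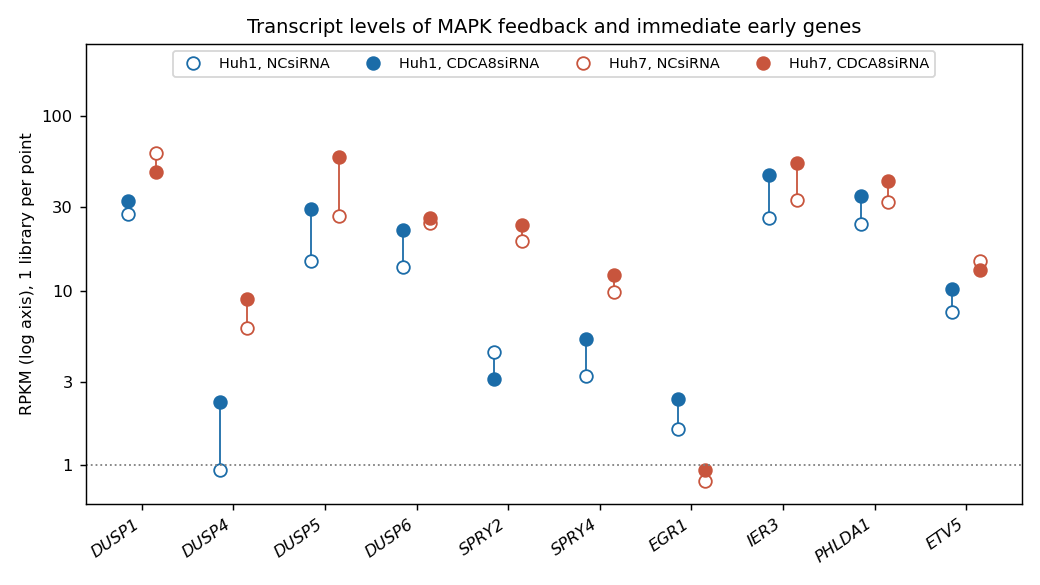
Transcript level of each member in RPKM (log axis) in the 4 libraries, 1 point per library, with Huh1 in blue and Huh7 in red, NCsiRNA as open and CDCA8siRNA as filled circles, and a dotted line at the filter of 1 RPKM. DUSP5 lies at 14.8 and 29.5 RPKM in Huh1 and at 26.7 and 58.4 RPKM in Huh7, while EGR1 stayed under the dotted line in both Huh7 libraries.

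Among the phosphatases, DUSP5, a nuclear phosphatase specific for ERK, had the clearest change. It was at 14.8 RPKM (501 reads) with NCsiRNA and 29.5 RPKM (983 reads) with CDCA8siRNA in Huh1, and at 26.7 RPKM (822 reads) and 58.4 RPKM (1810 reads) in Huh7. Both CDCA8siRNA libraries were above both NCsiRNA libraries, whichever line they came from. The ratio was 1.99 (95% interval 1.79 to 2.22) in Huh1 and 2.19 (2.02 to 2.38) in Huh7, and the changes on the log2(RPKM + 1) scale were 0.95 and 1.10. Of all genes tested, 0.430% in Huh1 and 0.562% in Huh7 had a change as high or higher. The limma change over both lines was 1.02 ± 0.0969 (SE), with an adjusted p of 0.00112, and DUSP5 took rank 16 by p among 10357 genes.

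DUSP4, a nuclear phosphatase of ERK and other MAP kinases, was much lower in Huh1. It was at 0.931 RPKM (70 reads) with NCsiRNA and 2.31 RPKM (171 reads) with CDCA8siRNA there, and at 6.13 RPKM (421 reads) and 9.01 RPKM (621 reads) in Huh7. The libraries separated by line before they separated by siRNA, with both Huh7 values above both Huh1 values. The ratio of 2.48 (1.87 to 3.32) in Huh1 was the highest of any member in either line, but on the log2(RPKM + 1) scale it came to 0.78 and was not called. In Huh7 the ratio was 1.47 (1.29 to 1.66) and the change 0.49. Over both lines limma gave 0.63 ± 0.135 (SE) with an adjusted p of 0.0214. DUSP4 passed the filter of 1 RPKM in Huh1 only through the CDCA8siRNA library.

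DUSP6, the cytoplasmic phosphatase of ERK, was at 13.6 RPKM (513 reads) and 22.4 RPKM (834 reads) in Huh1 and at 24.4 RPKM (841 reads) and 26.0 RPKM (898 reads) in Huh7. The Huh1 ratio of 1.65 (1.48 to 1.85) lay above 1, and the Huh7 ratio of 1.06 (0.965 to 1.17) had an interval that held 1. Only the Huh1 library with NCsiRNA stood apart, since the other 3 were within 22.4 to 26.0 RPKM. The fit over both lines did not call it (0.38 ± 0.138 SE, adjusted p = 0.116).

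DUSP1, which acts on p38 and JNK as well as ERK, was the most abundant member in both NCsiRNA libraries. It was at 27.5 RPKM (745 reads) and 32.8 RPKM (875 reads) in Huh1 and at 61.7 RPKM (1523 reads) and 47.8 RPKM (1188 reads) in Huh7, with NCsiRNA first. The value was higher with CDCA8siRNA in Huh1 (ratio 1.19, 1.08 to 1.32) and lower in Huh7 (0.776, 0.718 to 0.837). Neither change was called, and the change over both lines was -0.06 ± 0.134 (SE) with an adjusted p of 0.830. Its window, shown above, was the only one of those searched that held a CRE.

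The Sprouty genes, inhibitors between receptor and RAF, had ratios on opposite sides of 1 in Huh1. SPRY4 was at 3.22 RPKM (215 reads) and 5.25 RPKM (346 reads) in Huh1 and at 9.77 RPKM (595 reads) and 12.3 RPKM (751 reads) in Huh7. Its value was higher with CDCA8siRNA in each line, with ratios of 1.63 (1.37 to 1.95) and 1.25 (1.13 to 1.40). The change over both lines, 0.43 ± 0.121 (SE), missed the threshold with an adjusted p of 0.0531. SPRY2 was at 4.43 RPKM (125 reads) and 3.13 RPKM (87 reads) in Huh1, and at 19.4 RPKM (498 reads) and 23.9 RPKM (618 reads) in Huh7. It was the only member with a lower value in Huh1 after CDCA8siRNA, with a ratio of 0.706 (0.531 to 0.936), against 1.23 (1.10 to 1.39) in Huh7. The limma change of SPRY2 was -0.05 ± 0.155 (SE), adjusted p = 0.866.

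Of the transcription factors, EGR1, a zinc finger protein and a classic immediate early gene, was barely expressed. It was at 1.60 RPKM (67 reads) and 2.39 RPKM (99 reads) in Huh1 and at 0.812 RPKM (31 reads) and 0.932 RPKM (36 reads) in Huh7. Both Huh1 values were above both Huh7 values, while each of the other 9 members was higher in Huh7 than in Huh1 with the same siRNA. The ratio was 1.5 (1.09 to 2.08) in Huh1 and 1.15 (0.694 to 1.93) in Huh7. EGR1 did not pass the filter in Huh7, and at this depth no difference was detectable there. EGR1, whose window held 2 CArG boxes, was the member with the lowest level in Huh7, and a link between the 2 was not tested.

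ETV5, an ETS factor of the PEA3 group that depends on ERK for its expression, was at 7.58 RPKM (416 reads) and 10.3 RPKM (555 reads) in Huh1 and at 14.7 RPKM (736 reads) and 13.1 RPKM (659 reads) in Huh7. The value was higher with CDCA8siRNA in Huh1, at a ratio of 1.35 (1.19 to 1.54), and lower in Huh7, at 0.890 (0.8003 to 0.9904). Over both lines the change was 0.12 ± 0.138 (SE), adjusted p = 0.639 by limma.

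IER3, an immediate early gene linked to cell survival, was at 26.1 RPKM (433 reads) and 46.3 RPKM (757 reads) in Huh1 and at 33.0 RPKM (499 reads) and 53.9 RPKM (820 reads) in Huh7. As with DUSP5, both CDCA8siRNA libraries were above both NCsiRNA libraries. The ratios were 1.77 (1.57 to 2.00) and 1.63 (1.46 to 1.83), and 0.850% of genes in Huh1 and 3.18% in Huh7 had a change as high or higher. The limma change was 0.75 ± 0.0922 (SE) with an adjusted p of 0.00251, rank 67 by p.

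PHLDA1, a pleckstrin homology-like protein induced by growth factors, rose by less and with the narrowest intervals, since it had the most reads. It was at 24.0 RPKM and 34.9 RPKM in Huh1 and at 32.1 RPKM and 42.3 RPKM in Huh7, again with both CDCA8siRNA libraries above both NCsiRNA libraries. The ratios were 1.45 (1.37 to 1.54) and 1.32 (1.25 to 1.39). Its read numbers, about 1899 to 3071, are approximate because the transcript length behind the deposited values was not recovered. The change over both lines was 0.45 ± 0.0946 (SE), with an adjusted p of 0.0195.

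**Figure D2:**
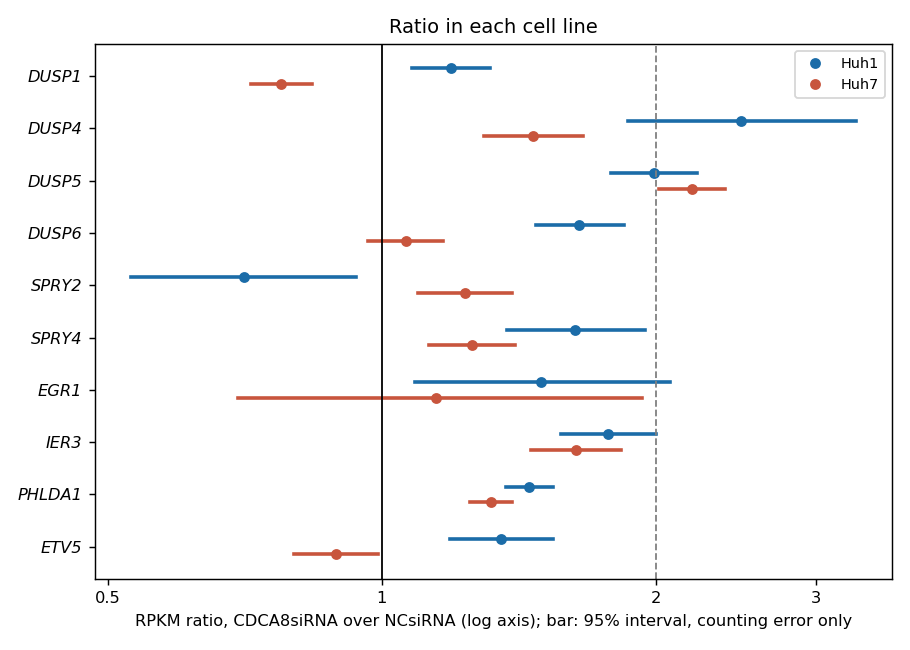
RPKM ratio of CDCA8siRNA to NCsiRNA for each member (log axis) in Huh1 (blue) and Huh7 (red), 1 pair of libraries per line, with bars for the exact binomial 95% interval, which covers counting error only. DUSP5 and IER3 lie to the right of 1.4 in both lines, DUSP1, SPRY2 and ETV5 lie on opposite sides of 1, and EGR1 in Huh7 has the widest bar.

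Counted by line, 0 of 10 members reached the 2-fold call in Huh1, where 0.320% of 10940 genes were called higher and 0.174% lower. DUSP5 was the 1 member called in Huh7, of 9 that passed the filter, beside 0.873% of 11565 genes called higher and 0.700% called lower. At 1.5-fold on the log2(RPKM + 1) scale, 4 members were higher in Huh1 (DUSP4, DUSP5, DUSP6 and IER3), against 2.48% of all genes, and 2 in Huh7 (DUSP5 and IER3), against 5.30%. SPRY4 was not counted in Huh1, since its plain ratio of 1.63 came to a change of 0.57 on that scale. The value was higher with CDCA8siRNA for 9 of 10 members in Huh1 and for 7 of 9 in Huh7, while 55.1% and 54.5% of all genes were higher by any amount. The median change of the members was 0.54 in Huh1 and 0.30 in Huh7, and that of all genes tested was 0.02 and 0.03. In both lines 6 of 9 members were higher, against 39.0% of 10357 genes, and EGR1, which missed the filter, was higher in both as well.

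The limma fit of all 4 libraries held the cell line as a term. In it, 4 of 9 members tested rose (DUSP4, DUSP5, IER3 and PHLDA1) and 0 fell. DUSP4 reached the filter in Huh1 only through its CDCA8siRNA library, where it was higher, so its call is not independent of that rise. Among all 10357 genes, 6.03% rose and 4.21% fell at an adjusted p under 0.05 (625 and 436 genes, or 789 and 750 after quantile normalization). The members' median change was 0.43, and that of all genes was 0.03. This fit has 1 residual degree of freedom and tests whether the mean change over the 2 lines differs from 0. A member whose changes differ between the lines carries a larger error in this fit. The 4 calls were lost without the filter on low values, where 0 genes in all were called by limma, with adjusted p of 0.252 to 0.282 for the 4, although 2440 genes had an unadjusted p under 0.05.

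**Figure D3:**
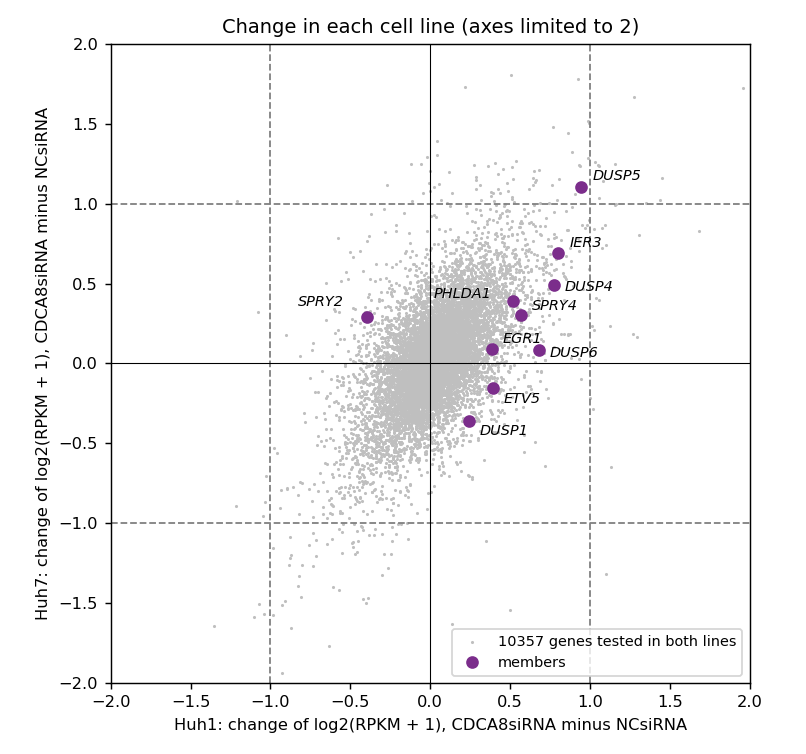
Change of log2(RPKM + 1) with CDCA8siRNA in Huh1 (horizontal axis) and Huh7 (vertical axis) for the 10357 genes tested in both lines (grey, 7 of them outside the axes at 2) and the 10 members (purple, EGR1 included although it missed the filter in Huh7). Dashed lines mark 2-fold. DUSP5 lies at 0.95 and 1.10 and IER3 at 0.80 and 0.69, while SPRY2 lies at -0.40 and 0.29.

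The response was compared between the lines as the Huh7 minus the Huh1 log2 ratio, with a 95% interval for counting error. The interval held 0 for DUSP5 (0.14, -0.06 to 0.33), IER3 (-0.12, -0.35 to 0.12) and EGR1 (-0.38, -1.21 to 0.44). It lay under 0, a smaller or opposite response in Huh7, for DUSP1 (-0.62, -0.80 to -0.44), DUSP4 (-0.76, -1.20 to -0.32), DUSP6 (-0.64, -0.84 to -0.43), ETV5 (-0.60, -0.84 to -0.37), SPRY4 (-0.38, -0.67 to -0.09) and PHLDA1 (-0.14, -0.25 to -0.02). SPRY2 was the only member with an interval above 0 (0.81, 0.38 to 1.24). Whether these differences exceed the spread between transfections was not tested, as there was 1 library per condition.

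The lines also differed in level before CDCA8 was silenced. With NCsiRNA, the order of the members in Huh1 was DUSP1, IER3, PHLDA1, DUSP5, DUSP6, ETV5, SPRY2, SPRY4, EGR1 and DUSP4, from 27.5 to 0.931 RPKM. In Huh7 the 5 most abundant were the same in the same order, and SPRY2, ETV5, SPRY4, DUSP4 and EGR1 followed. The median level of genes at 1 RPKM or more was 12.2 RPKM in Huh1 and 12.4 RPKM in Huh7, so DUSP6 and the members ranked above it stood over the median in both. With CDCA8siRNA the highest member was IER3 in Huh1 (46.3 RPKM) and DUSP5 in Huh7 (58.4 RPKM). No spread of these levels between cultures was available, so whether neighbours in the order differ was not tested.

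With NCsiRNA, 4 of 10 members were called higher in Huh7 than in Huh1, where 17.0% of 11896 genes were called higher and 10.2% lower. These were DUSP4 (ratio 6.59, 5.11 to 8.63), SPRY2 (4.37, 3.59 to 5.36), SPRY4 (3.03, 2.59 to 3.57) and DUSP1 (2.24, 2.05 to 2.45). DUSP5 and DUSP6 (both 1.8) and ETV5 (1.94) came next, and EGR1 was lower (0.507, 0.321 to 0.788). The members' median difference was 0.84 on the log2(RPKM + 1) scale, and that of all genes was 0.14. With CDCA8siRNA, DUSP4 (3.90), SPRY2 (7.64) and SPRY4 (2.33) were called, against 17.4% of all genes called higher. The ratio of DUSP1 was then 1.46 and that of DUSP6 1.16. These comparisons use the same libraries as those within a line, so they are not separate evidence of a response.

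The rest of the pathway was described from 4 further lists, whose counts are to be read beside the 6.03% of all 10357 genes that rose and the 4.21% that fell in the same fit. The ERK cascade itself, from adaptors and RAS to ERK and its kinase targets, had a median change of 0.02, and of 20 genes tested by limma 2 rose and 1 fell, near the shares over all genes. NRAS, a RAS GTPase, rose by 0.42 (adjusted p = 0.0195), with 34.7 and 48.04 RPKM in Huh1 and 69.1 and 90.1 RPKM in Huh7. PTPN11, the phosphatase SHP2 that helps receptors to activate RAS, rose by 0.37 (adjusted p = 0.0293). RPS6KA3, the kinase RSK2 that ERK activates, fell by 0.85 (adjusted p = 0.00129), from 55.0 to 32.6 RPKM and from 182 to 92.8 RPKM.

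Of 13 other MAPK inhibitors, 10 were tested, of which 4 rose (6.03% of all genes) and 1 fell (4.21%), with a median change of 0.17. DUSP8, a phosphatase of JNK and p38, rose by 0.75 (adjusted p = 0.00938), with 1.52 and 3.05 RPKM in Huh1 and 4.20 and 8.11 RPKM in Huh7. DUSP16, also a JNK phosphatase, rose by 0.52 (adjusted p = 0.0174). SPRED1 and SPRED2, Sprouty-related inhibitors of RAS signalling, rose by 0.55 (adjusted p = 0.0234) and 0.46 (adjusted p = 0.0495). DUSP9, a phosphatase of ERK and p38, changed the other way and fell by 0.98 (adjusted p = 0.00120), from 35.2 to 18.7 RPKM and from 107 to 49.98 RPKM. DUSP9 was thus the most abundant phosphatase in Huh7 with NCsiRNA among those listed here, and DUSP5 was above it with CDCA8siRNA.

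Of 20 other immediate early and ERK target genes, 14 were tested, of which 5 rose (6.03% of all genes) and 0 fell (4.21%), with a median change of 0.34. FOSL1, the AP-1 subunit FRA1 whose level depends on ERK, rose by 1.11 (adjusted p = 0.000894), with 11.96 and 26.4 RPKM in Huh1 and 7.86 and 18.6 RPKM in Huh7. FOS rose by 0.80 (adjusted p = 0.0103) from a low level, 1.73 to 3.83 RPKM and 1.06 to 2.53 RPKM. The other 3 were IER2, an immediate early gene (0.67, adjusted p = 0.00715), JUN, the partner of FOS in AP-1 (0.64, adjusted p = 0.00568), and NAB1, a corepressor of EGR proteins (0.39, adjusted p = 0.0470).

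Of 7 genes for the EGF receptor and its ligands, 3 were tested and 2 of them rose, against 6.03% of all genes. EREG, the ligand epiregulin, rose by 1.47 (adjusted p = 0.000638), with 5.74 and 15.3 RPKM in Huh1 and 13.6 and 45.5 RPKM in Huh7. The receptor EGFR rose by 0.40 (adjusted p = 0.0315), from 22.0 to 30.9 RPKM and from 44.2 to 55.4 RPKM. HBEGF, another ligand, was at 1.30 and 1.29 RPKM in Huh1 and at 4.09 and 10.1 RPKM in Huh7, and the fit over both lines did not call it (0.56, adjusted p = 0.155).

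**Figure D4:**
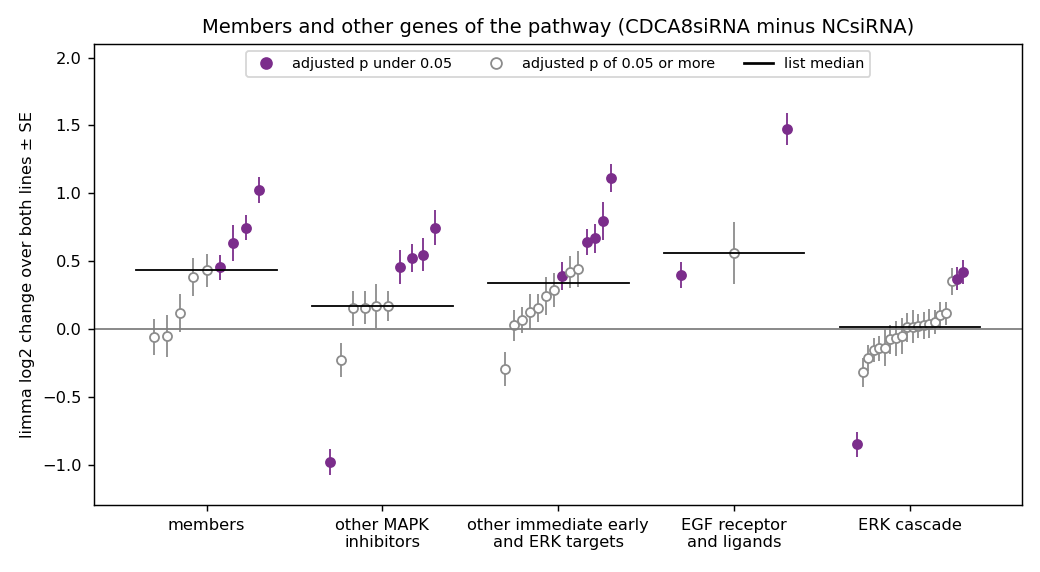
Change over both lines with CDCA8siRNA (limma, log2 scale, bars for the SE) of the members and of the 4 further lists, 1 point per gene tested, purple where the adjusted p was under 0.05, with a black line at the median of each list. The medians were 0.43 for the members, 0.17 for other MAPK inhibitors and 0.34 for other immediate early and ERK target genes. That of the EGF receptor and ligands was 0.56 over 3 genes, which is the value of HBEGF, a gene not called. In the ERK cascade the median was 0.02, and RPS6KA3 is the low point at -0.85.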

How the data were processed

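RNA of Huh1 and Huh7 cells (total RNA by Trizol, Illumina TruSeq RNA libraries) was measured in 4 libraries, grouped by the labels, with 1 per line and siRNA. The authors deposited 1 value per RefSeq transcript without a stated unit. Multiplied by transcript length, the deposited values fell on whole or evenly divided reads, so they were taken as RPKM. The submitters' processing notes name CASAVA 1.8.2, TopHat2 2.0.9 and hg19, and the counting tool is not given in the sources used here. The depth (13384836, 13193713, 12197606 and 12266642 reads) was inferred from the deposited values and transcript lengths in GENCODE 29. Reads were recovered from the RPKM, this depth and a transcript length. For 5 members this was the shortest length that gave whole reads in all libraries. For 4 members it gave whole and divided reads within 15% of the GENCODE length, and for PHLDA1 it was the GENCODE length. For DUSP6, of the 5, the length was 2820 bases, against 4400 in GENCODE. Intervals of the ratios were Clopper-Pearson at 95% on rounded reads. Those of the difference between the lines used a normal approximation on the log2 scale. Both cover counting error only.

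Changes were differences of log2(RPKM + 1) computed from the deposited RPKM, over genes at 1 RPKM or more, called at 2-fold. limma 3.58.1 in R 4.3.3 (lmFit, eBayes with trend, cell line as covariate) was fitted to all genes with Benjamini-Hochberg adjustment, with 1 residual and 8.29 prior degrees of freedom, and every adjusted p is from it. The p-values test whether the mean change over the lines differs from no change. Their error combines how differently the lines moved for a gene with a prior drawn from all genes fitted. It does not measure the spread between repeated transfections. The study's ANOVA could not be refitted with 1 library per condition. The fit was also run on simulated data, with a small change specific to each line and some genes changed alike in both. That run is not evidence for the calls in these data. Python 3.11.15, numpy 2.4.6, pandas 2.3.3, scipy 1.17.1 and matplotlib 3.10.9 were used. Promoter windows came from RefSeq (GRCh38.p14).

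Members and lists were chosen with earlier results of these data known. Named genes were the 10 members, CDCA8 and up to 5 genes per further list with the smallest adjusted p among those at least 2-fold changed in a line or with an adjusted p under 0.05. SPRY3, MYC and AREG were not analysed here. The alternatives were another pseudocount, filter, scaling or fold, and limma without the covariate or the trend.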

Additional observations from a re-analysis of the deposited data

Results flagged for a closer look

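DUSP1, SPRY2 and ETV5 had effects of opposite sign in the 2 lines, and in none of these cases was the difference tested against replicates. The log2 ratio of CDCA8siRNA to NCsiRNA was 0.25 in Huh1 and -0.37 in Huh7 for DUSP1, -0.50 and 0.30 for SPRY2, and 0.44 and -0.17 for ETV5. HBEGF, of the list of EGF receptor ligands, also differed in direction, with a log2(RPKM + 1) change of -0.0084 in Huh1 and 1.13 in Huh7. With 1 library per condition, a direction rests on a single pair of libraries in each line, and the Huh1 change of HBEGF is next to none.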

How the results depend on the processing

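The limma fit pairs the libraries by cell line through its covariate. With 1 library per condition and no replicate numbers in the labels, neither pairing by replicate nor leaving out a replicate could be tried. No member changed sign under any alternative run. With a pseudocount of 0.1 RPKM, 164 of 10940 genes were called in Huh1, in place of 54. In Huh7 422 of 11565 genes were called, in place of 182. Of 10 members, 1 in place of 0 was then called in Huh1 (DUSP4, at 1.22). At a call of 1.5-fold, 410 of 10940 genes and 4 of 10 members were called in Huh1. In Huh7 these were 1009 of 11565 genes and 2 of 9 members. Between the lines with NCsiRNA, 5676 of 11896 genes were called, 3460 higher and 2216 lower in Huh7. There 7 of 10 members were called, all 7 higher, against 3239 genes and 4 members at 2-fold. In the limma fit, 1061 of 10357 genes and 4 of 9 members were called. Without the filter on low values 0 genes and 0 members were called, with 2440 genes at an unadjusted p under 0.05, and without the cell line covariate 0 and 0, with 89 such genes and an adjusted p of 1 for every member tested. The cause of the loss without the filter was not tested, while leaving out the covariate puts the difference between the lines into the residual. The fit called 1539 of 10396 genes and 6 members after quantile normalization, adding DUSP6 (adjusted p = 0.0399) and SPRY4 (0.0434). SPRY4 also passed at a minimum of 5 RPKM (0.0336). There DUSP4 missed the filter and was not tested, so the count stayed at 4 members. The fit called 902 genes after upper quartile scaling and 710 without the trend. Quantile normalization moved the split of higher and lower calls in Huh1 from 35 and 19 to 22 and 20, and between the lines with NCsiRNA from 2028 and 1211 to 1644 and 1504, where it took the median of all genes from 0.14 to -0.00057. Depth limits EGR1 most, with 31 to 99 reads.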

Other observations

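Several relatives of the members were measured under the filter of 1 RPKM in at least 1 line and entered no comparison over both lines. They are named here after their values were seen. EGR2 was at 0.0251 and 0.0763 RPKM in Huh1 and at 0.138 and 0.443 RPKM in Huh7, with NCsiRNA first. FOSB, an AP-1 subunit, was at 0.435 and 0.622 RPKM in Huh1 and at 0.261 and 0.605 RPKM in Huh7. EGR4 was listed at 0 in all 4 libraries. ETV1 was at 0.125 and 0.0641 RPKM in Huh1 and at 12.8 and 9.02 RPKM in Huh7, lower with CDCA8siRNA in Huh7. Its Huh1 values were far under the filter, so no direction was read there. Of the EGF receptor ligands, EGF was at 2.27 and 2.35 RPKM in Huh1 and at 0.207 and 0.859 RPKM in Huh7, and BTC at 0.678 and 0.917 RPKM in Huh1 and at 0.620 and 1.79 RPKM in Huh7. DUSP2, a nuclear phosphatase, was at 5.05 and 4.498 RPKM in Huh1 and at 0.146 and 0.0242 RPKM in Huh7.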
